A study of Mus musculus with 18 samples.

Results

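The response of the dorsal spinal cord to inflammation of the hindpaw was described in mice that expressed HDAC4 3SA, a form of the histone deacetylase HDAC4 that cannot leave the nucleus. The comparison was that of intraplantar complete Freund's adjuvant (CFA), which inflames the paw, with intraplantar saline. A row of the deposited table was used if it was evaluated by the authors' software, named 1 gene, did not carry an immunoglobulin heavy or light chain name and had a mean of at least 1 FPKM over both groups. FPKM counts mapped fragments relative to exon length and to the size of the library. These criteria kept 16249 of 34579 rows, which name 14300 genes.

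Poly-A RNA of the dorsal part of lumbar segments L3-5 was sequenced from 6 groups of 3 mice, 18 mice in all. The C57BL/6 mice (C57BL/6N in the study's methods) were 3 months old and carried intraspinal rAAV, of either LacZ (the control), HDAC4 wt or HDAC4 3SA, and all 3 vectors were followed by either saline or CFA 24 h before collection. In HDAC4 3SA, phosphorylation sites needed for nuclear export are mutated. The virus was injected into the cord and, per the study, expressed in dorsal horn neurons, while the RNA came from all cells of the tissue. In such bulk samples, fewer cells of a type and less RNA per cell cannot be told apart. The authors deposited 1 FPKM value per group, estimated over its 3 mice. No value per mouse was analysed here, so no SD is given and no test was made. The authors' own test columns were not used. Depth of each mouse is not known beyond the minimum read number that the study's methods state, and every difference is a description of 2 group values. A row is called past the fold where its log2 fold change, of CFA over saline with 0.1 FPKM added to both, lies beyond 0.5 or -0.5.

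HDAC4 is a class IIa histone deacetylase that shuttles between the nucleus and the cytoplasm. Phosphorylation by calcium-dependent kinases leads to its export, and in the nucleus it acts with corepressors on transcription factors such as those of the MEF2 family. Within a cord, paw inflammation is sensed through primary afferents and dorsal horn neurons. Microglia, the resident macrophages, and cells that enter from blood respond to such input as well as to local injury and to viral vectors.

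In HDAC4 3SA mice, 1444 of the 16249 rows were higher past the fold after CFA (8.89%) and 509 were lower (3.13%). The same rule gave 1107 higher (6.78%) and 551 lower (3.38%) of 16316 rows in HDAC4 wt mice. In LacZ mice it gave 509 higher (3.22%) and 379 lower (2.40%) of 15791 rows. Some genes have more than 1 row, on the same or on opposite strands. When 1 row was kept per gene, which was the longest one and, among equals, the one on the annotated strand, 14121 genes remained. Of these, 1079 were higher past the fold (7.64%) and 294 were lower (2.08%). Differences of any size counted, 7453 of the 14121 genes (52.8%) were higher after CFA and 6668 lower. All values below are of these gene rows unless a row is said to be another one, and where a pair of FPKM values is given, the first is that of saline and the second that of CFA. The median log2 fold change over them was 0.01, with a 5th percentile of -0.36 and a 95th percentile of 0.68, so the distribution was wider on the side of higher values. Beyond 1 on the log2 scale were 249 genes, and below -1 were 32.

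**Figure D1:**
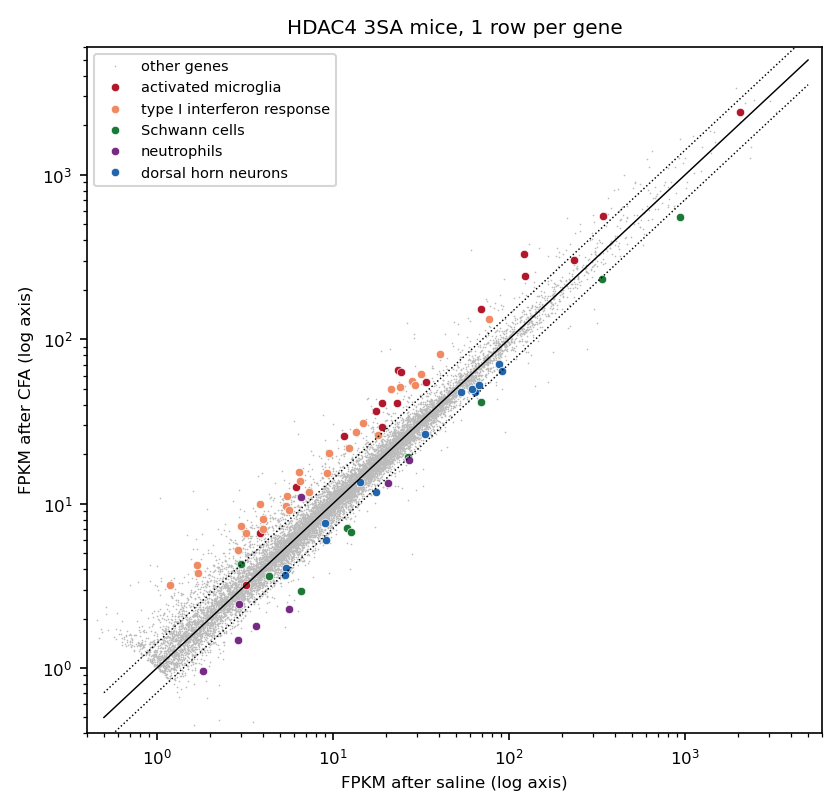
Each point is 1 gene of HDAC4 3SA mice, with its FPKM after saline on the horizontal and after CFA on the vertical log axis; the solid line marks equality and the dotted lines a log2 fold change of 0.5 and -0.5. The 28 interferon genes and 14 of the 17 genes of activated microglia lie above the upper dotted line, and genes of Schwann cells, neutrophils and dorsal horn neurons lie mostly below equality.

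The share of genes past the fold differed with level. From 1 to 5 FPKM, 12.2% of 4377 genes were higher past the fold and 3.52% lower. From 5 to 20 FPKM, these shares were 5.75% and 1.49% of 5917 genes, and from 20 to 100 FPKM they were 4.32% and 1.11% of 3241 genes. Among the 586 genes of at least 100 FPKM, 11.4% were higher and 2.73% lower past the fold. The share was lowest at 20 to 100 FPKM in both directions. At the minimum itself, which was looked at after the data were seen, 78 of 390 rows from 1 to 1.1 FPKM were higher and 32 lower past the fold, and so were 47 and 31 of 381 rows from 0.9 to 1 FPKM, which were not kept.

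Hdac4 itself, which the vector expresses, was at 8.86 FPKM with saline and 8.81 FPKM with CFA in HDAC4 3SA mice (chromosome 1, 91928777 to 92180314, GRCm38). It was at 7.41 and 7.72 FPKM in LacZ mice and at 10.1 and 10.8 FPKM in HDAC4 wt mice. The levels in HDAC4 3SA mice lay between those of the other vectors. How many fragments of the transgene were counted in this row was not tested. None of the 11 histone deacetylases was past the fold, with log2 fold changes from -0.33 (Hdac9) to 0.23 (Hdac10). None of the 23 partners and kinases of HDAC4 was either. Of these, 18 were lower after CFA, with a median of -0.08, and the lowest was Camk2a, a calcium-dependent kinase subunit, at 73.4 and 54.1 FPKM. Mef2a and Mef2c, transcription factors bound by HDAC4, were at 31.6 and 37.0 FPKM and at 7.99 and 9.30 FPKM. Among 9 commonly used reference genes with a value, 5 were higher and 4 lower, with a median of 0.02 and none past the fold. Gapdh was at 374 FPKM with saline and 385 FPKM after CFA.

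Genes of macrophages and microglia were higher after CFA in HDAC4 3SA mice. Of 17 measured genes of activated microglia, 17 were higher and 14 were past the fold, with a median log2 fold change of 0.98. The same genes had a median of 0.29 in HDAC4 wt and 0.13 in LacZ mice. Cst7, which encodes the protease inhibitor cystatin F, was at 23.4 FPKM in the saline group and 65.0 FPKM after CFA, a 2.76-fold difference (chromosome 2, 150570273 to 150579019). Spp1, which encodes osteopontin, was at 121 and 330 FPKM. Lgals3, which encodes galectin-3, was at 24.2 and 63.3 FPKM. Tyrobp, the signalling adaptor of TREM2, was at 69.0 and 153 FPKM, and Trem2 itself at 19 and 41.1 FPKM. Itgax, which encodes the integrin CD11c, was at 11.6 and 25.9 FPKM. In the same list, Cd63 (3.19 and 3.22 FPKM), Cd9 (233 and 303 FPKM) and the ferritin gene Fth1 (2050 and 2410 FPKM) were below the fold. The rows that name Ctsd and Gpnmb alone had a mean below 1 FPKM.

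Genes of resident microglia were uneven. Of 9 homeostatic genes with a value, 8 were higher and 4 past the fold, with a median of 0.36. Cx3cr1, the fractalkine receptor, was at 26.3 and 42.1 FPKM. P2ry12, the purine receptor of resting microglia, was at 13.6 and 14.3 FPKM, Tmem119 at 15.7 and 20.2 FPKM, and Siglech at 6.08 and 5.55 FPKM. Csf1r, the receptor that microglia need to survive, was past the fold at 52.9 and 78.1 FPKM, as was Selplg, an adhesion ligand, at 22.6 and 35.4 FPKM. A similar split ran through the list of border-associated macrophages. Siglec1, a sialic acid receptor, was at 1.82 and 6.54 FPKM and Ms4a7 at 11.3 and 27.9 FPKM. By contrast Mrc1, the mannose receptor, was at 2.27 and 2.34 FPKM, Pf4 at 3.34 and 3.49 FPKM, and Lyve1, Cd163 and Cbr2 were below 1 FPKM on average.

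Genes of lysosomes and phagocytosis were higher as well. Of 13 genes, 13 were higher and 11 past the fold, with a median of 0.83. Lyz2, the lysozyme of macrophages and neutrophils, was at 213 FPKM with saline and 547 FPKM after CFA, 2.57-fold higher (chromosome 10, 117277238 to 117282340). The cathepsin Ctss was at 365 and 719 FPKM, and the macrophage glycoprotein Cd68 at 43.4 and 108 FPKM. Lamp1 and Lamp2, membrane proteins of lysosomes in all cells, were at 326 and 399 FPKM and at 83.6 and 111 FPKM, both below the fold. Outside the lists, Atp6v0d2, a proton pump subunit, was at 1.66 and 6.07 FPKM, Mcoln3, a lysosomal channel, at 0.516 and 2.13 FPKM, and the heparanase gene Hpse at 4.71 and 13.3 FPKM. These 3 genes were chosen after their values were seen.

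Fc receptors bind antibodies on the surface of macrophages and microglia. All 7 measured genes were higher, 6 of them past the fold, with a median of 1.09 against 0.24 in HDAC4 wt and 0.29 in LacZ mice. Fcer1g, the shared signalling chain, was at 51.4 and 125 FPKM, and Fcgr2b, the inhibitory receptor for IgG, at 8.37 and 19.4 FPKM. Fcgrt, the neonatal receptor, was below the fold at 18 and 20 FPKM. Complement genes were higher in 14 of 14 cases and past the fold in 12, with a median of 0.88. The 3 chains of C1q, the starter of the classical pathway, were at 254 and 500 FPKM (C1qa), 78.0 and 160 FPKM (C1qb) and 89.4 and 185 FPKM (C1qc). The central component C3 was at 22.1 and 41.1 FPKM, and the receptor C3ar1 at 5.12 and 10.6 FPKM. The complement inhibitor Serping1 had a log2 fold change of 0.60, at 25.9 and 39.4 FPKM.

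Every one of the 28 measured genes of the type I interferon response was past the fold and higher after CFA, against 7.64% of all genes. Their log2 fold changes ran from 0.54 (Cmpk2) to 1.36 (Oas2), with a median of 1.0. In HDAC4 wt mice the same 28 genes had a median of 0.47, and in LacZ mice of 0.41. Rsad2, which encodes the antiviral protein viperin, was at 3.87 and 9.92 FPKM. Irf7, the transcription factor that amplifies the response, was at 21.3 and 50 FPKM. Isg15, a ubiquitin-like protein, was at 28 and 56.0 FPKM, and Ifit3, an RNA-binding antiviral protein, at 24.0 and 50.9 FPKM. The nucleic acid sensors Ddx58 and Ifih1 were at 5.39 and 9.61 FPKM and at 2.89 and 5.19 FPKM. Ifit3 and Ifit3b are near copies, as are the Oas genes, so the counting may have shared reads among them. Another 4 genes of the list have no row that names them alone and were not analysed here.

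Promoters from RefSeq (GRCm38.p6, 250 bases before to 50 after the start site) were read for 20 of these 28 genes. The core of the interferon-stimulated response element was searched as GAAA, any 2 bases and GAAA, on both strands, with overlapping matches counted. It was found in 14 of 22 promoters of the list (63.6%), in 3.44% of all 32851 promoters and in 3.00% of 13061 promoters of genes that reached 1 FPKM. Among genes higher past the fold outside the list it was in 53 of 900 promoters (5.89%), and among genes lower past the fold in 11 of 208 (5.29%). The MEF2 consensus was in 3.19% of all promoters, in 1.68% of those of genes that reached 1 FPKM, in 15 of 922 promoters of genes higher past the fold (1.63%) and in 7 of 208 of genes lower past the fold (3.37%). A match describes letters only. The promoters below are of the 5 genes of the list with the highest log2 fold change among those with the core, 1 for each gene, shown to make visible where it lies. They are Rsad2 at chr12:26456403-26456702 (- strand), Oas1a at chr5:120907476-120907775 (- strand), Ifit3 at chr19:34583279-34583578 (+ strand), Trim30a at chr7:104446076-104446375 (- strand) and Isg15 at chr4:156200769-156201068 (- strand). Each runs in the direction of its gene, 5′ to 3′. Capitals mark the arms of the core, which reads TTTC where it lies on the other strand.
Rsad2: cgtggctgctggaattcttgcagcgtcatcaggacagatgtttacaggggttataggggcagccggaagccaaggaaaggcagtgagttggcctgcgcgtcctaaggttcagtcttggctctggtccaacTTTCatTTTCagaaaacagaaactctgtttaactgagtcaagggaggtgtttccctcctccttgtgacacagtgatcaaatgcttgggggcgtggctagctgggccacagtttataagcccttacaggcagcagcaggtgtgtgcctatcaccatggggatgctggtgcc
Oas1a: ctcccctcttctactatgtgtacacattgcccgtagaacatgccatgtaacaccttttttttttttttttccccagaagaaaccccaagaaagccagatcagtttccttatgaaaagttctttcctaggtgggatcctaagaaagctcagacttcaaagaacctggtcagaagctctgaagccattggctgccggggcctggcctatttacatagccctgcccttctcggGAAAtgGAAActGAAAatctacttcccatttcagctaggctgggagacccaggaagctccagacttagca
Ifit3: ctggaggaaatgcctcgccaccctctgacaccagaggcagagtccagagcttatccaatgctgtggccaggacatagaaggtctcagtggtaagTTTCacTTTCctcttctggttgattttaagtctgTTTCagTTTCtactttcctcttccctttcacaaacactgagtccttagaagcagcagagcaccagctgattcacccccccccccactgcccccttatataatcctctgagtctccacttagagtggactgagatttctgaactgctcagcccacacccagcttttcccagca
Trim30a: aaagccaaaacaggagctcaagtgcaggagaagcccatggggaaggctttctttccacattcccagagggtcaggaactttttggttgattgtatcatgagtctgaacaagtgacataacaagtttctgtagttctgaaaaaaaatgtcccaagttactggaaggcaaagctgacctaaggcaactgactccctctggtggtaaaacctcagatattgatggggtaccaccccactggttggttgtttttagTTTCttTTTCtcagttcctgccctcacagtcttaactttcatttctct
Isg15: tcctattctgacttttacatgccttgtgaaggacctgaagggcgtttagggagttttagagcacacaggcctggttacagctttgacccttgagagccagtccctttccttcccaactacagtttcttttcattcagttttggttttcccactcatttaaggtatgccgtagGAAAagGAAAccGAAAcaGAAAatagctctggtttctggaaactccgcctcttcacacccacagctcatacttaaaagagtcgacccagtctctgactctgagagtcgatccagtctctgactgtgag
In Isg15 3 overlapping cores form 1 run, from -78 to -66 relative to the start site by their first bases. In Oas1a 2 overlapping cores begin at -20 and -14. Ifit3 holds 2 separate cores, while Rsad2 and Trim30a hold 1 each. A second promoter of Trim30a, which also holds 1 core, is not shown.

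**Figure D2:**
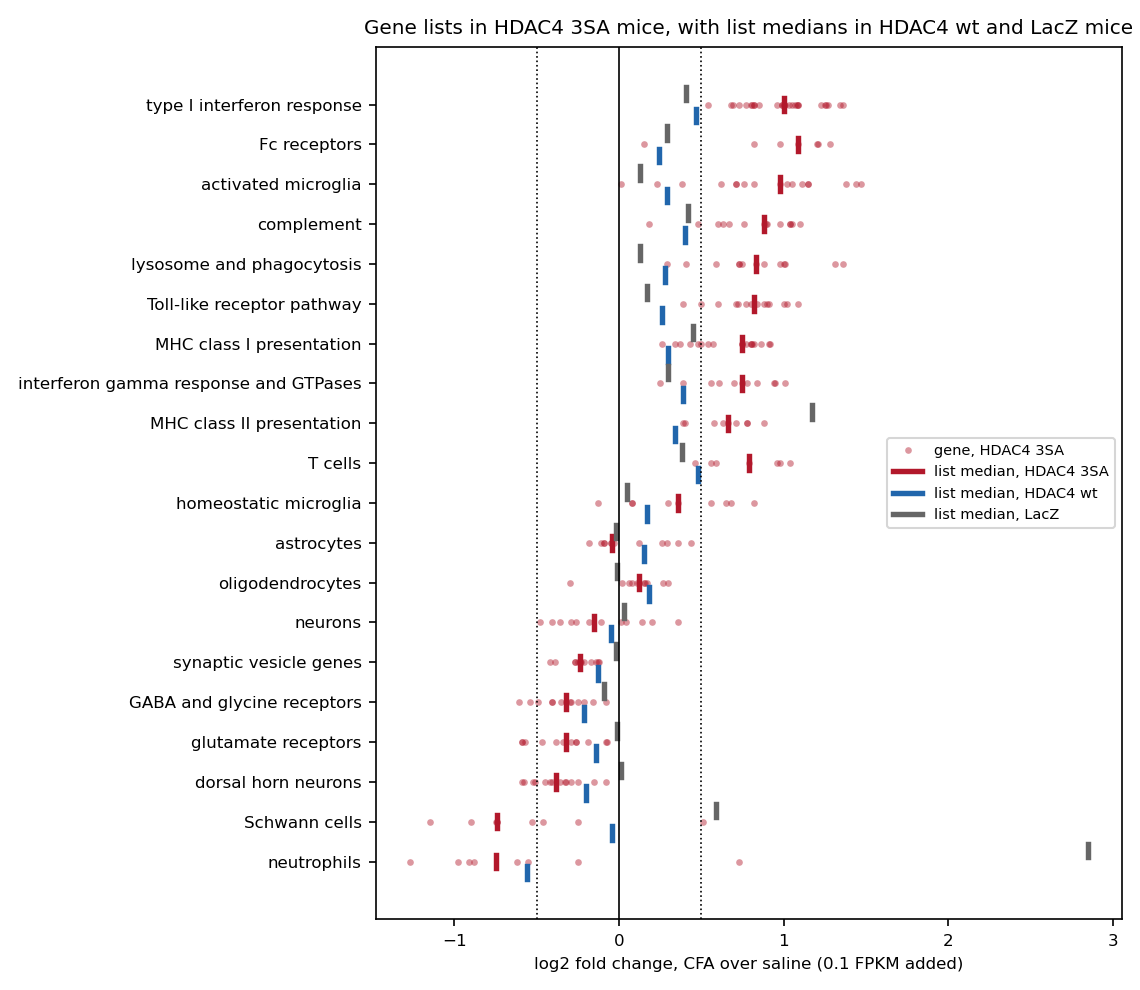
Points show the log2 fold change, CFA over saline, of each gene of 20 lists in HDAC4 3SA mice, and vertical bars show list medians in HDAC4 3SA (red), HDAC4 wt (blue) and LacZ mice (grey). The HDAC4 3SA medians of the lists from type I interferon response down to homeostatic microglia lie to the right of 0 and those of the neuronal lists drawn here to its left, motor and cholinergic neurons (1.01) not being drawn, and the medians of Schwann cells (-0.74) and neutrophils (-0.75) lie at the opposite side from those of LacZ mice (0.59 and 2.85).

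Antigen presentation was higher too, with smaller values. Of 18 genes of MHC class I presentation, 18 were higher and 13 past the fold, with a median of 0.75. B2m, the shared light chain, was at 306 and 514 FPKM, and H2-K1 and H2-D1, the classical heavy chains, at 185 and 322 FPKM and at 223 and 379 FPKM. The transporter subunit Tap1 was at 16.4 and 28.9 FPKM. H2 class I genes are similar in sequence, so their single values are uncertain. Of 9 genes of MHC class II presentation, 9 were higher and 7 past the fold, with a median of 0.66. Cd74, the invariant chain, was at 204 and 332 FPKM, and H2-Aa at 77.3 and 120 FPKM. In LacZ mice the median of these class II genes was 1.17, above that of HDAC4 3SA mice, and Cd74 was there at 17.8 and 43.5 FPKM. Of 11 genes of the interferon gamma response, 11 were higher and 9 past the fold, with a median of 0.75, and another 7 of the list have no row that names them alone. The row of Gbp8, one of the 11 and below the fold, is antisense to the gene and spans 1.77% of its exon bases. Rows of C2 (complement), H2-DMb2 (class II), Cd180 (Toll-like receptor pathway) and Lbp (acute phase) span 5.22%, 11.3%, 10.3% and 7.95% of theirs. Gbp2, a guanylate-binding protein, was at 22.4 and 40 FPKM.

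Innate immune receptors sense microbial and cellular products, and cytokines and chemokines carry their signals. Of 14 genes of the Toll-like receptor pathway, 14 were higher and 13 past the fold, with a median of 0.82. Tlr2, the receptor for bacterial lipopeptides, was at 7.55 and 12.9 FPKM, Tlr7, a receptor for single-stranded RNA, at 3.67 and 7.42 FPKM, and Tlr4, the receptor for lipopolysaccharide, at 0.701 and 1.39 FPKM. Of 12 chemokine genes, 11 were higher and 7 past the fold. The monocyte attractants Ccl3, Ccl4 and Ccl12 were at 4.12 and 8.41, 3.54 and 7.08, and 8.65 and 17 FPKM, and the B cell attractant Cxcl13 at 4.40 and 10.8 FPKM. Cx3cl1, which neurons make, was at 16.8 and 14.4 FPKM. Of 19 cytokines and receptors, 18 were higher and 14 past the fold, with a median of 0.64. Tnfrsf1a, a receptor for tumour necrosis factor, was at 23.6 and 54.6 FPKM, the highest log2 fold change of that list at 1.20. Il1b, a pain-related cytokine, was at 0.909 and 1.45 FPKM. Tnf stayed below 1 FPKM on average. The NF-kB list had 12 of 12 genes higher but only 3 past the fold, namely Bcl3, Ikbke and Nfkbiz, with a median of 0.35.

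Markers of lymphocytes were higher too. Of 7 T cell genes that reached 1 FPKM, 7 were higher and 6 past the fold, with a median of 0.79, and the 8 that did not reach it were higher as well. Cd3g was at 1.36 and 2.79 FPKM and Cd4 at 0.948 and 2.05 FPKM. Ccl5, a chemokine of cytotoxic lymphocytes, was at 15.3 and 32.8 FPKM. Of 10 genes of B and plasma cells, 10 were higher and 2 past the fold, with a median of 0.40, and Jchain, which joins secreted antibodies, was at 167 and 227 FPKM. The summed level of the T cell genes was 7.67 FPKM in the saline group and 13.5 FPKM after CFA, and that of B and plasma cell genes 205 and 278 FPKM. In HDAC4 wt mice the medians of T cell and of B and plasma cell genes were 0.48 and 0.19. In LacZ mice they were 0.38 and 0.47. Ccl5 was at 0.503 and 1.49 FPKM in LacZ mice, a 2.63-fold difference against 2.13-fold in HDAC4 3SA mice. The part of lymphocytes in the higher immune genes was not tested.

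Identity genes of astrocytes, oligodendrocytes and their precursors lay within the fold. None of 12 astrocyte genes was past the fold, with a median of -0.04 and 5 higher. Gfap, the intermediate filament of reactive astrocytes, was the highest of them at 805 and 1090 FPKM, with a log2 fold change of 0.44. None of 11 oligodendrocyte genes (median 0.12) and none of 9 oligodendrocyte precursor genes (median 0.24) was past the fold. In the list of astrocyte reactivity, 11 of 11 were higher and 7 past the fold, with a median of 0.68. Vim was at 119 and 191 FPKM, Hspb1, a small heat shock protein, at 13.5 and 28.9 FPKM, and Cd44 at 8.12 and 13.3 FPKM. Endothelial genes were higher in 11 of 12 cases with 2 past the fold, Vwf (7.04 and 11.9 FPKM) and Ly6c1 (22.4 and 31.9 FPKM).

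Acute-phase genes respond to inflammatory cytokines. Of 8 with a value, 7 were higher and 7 past the fold, with a median of 1.24. Saa3, serum amyloid A3, was at 0.781 and 3.32 FPKM. Lcn2, the siderophore-binding lipocalin, was at 5.12 and 15.9 FPKM, Lrg1 at 2.42 and 6.93 FPKM, and Ch25h, which makes an antiviral oxysterol, at 3.5 and 9.43 FPKM. Lcn2 and Lrg1 were also past the fold in the other vectors, with log2 fold changes of 1.63 and 1.96 in HDAC4 wt mice and of 3.00 and 2.08 in LacZ mice. Steap4 was the exception at 2.90 and 2.47 FPKM. Of 12 measured genes of the glucocorticoid and stress response, 10 were higher, 5 of them past the fold, and 2 lower, with a median of 0.20 against 0.28 in HDAC4 wt and 0.29 in LacZ mice. In that list the metallothioneins Mt1 and Mt2 were at 363 and 575 FPKM and at 138 and 222 FPKM, and Cdkn1a, the cell cycle inhibitor p21, at 90.7 and 153 FPKM. Ptgs2, the inducible cyclooxygenase, was at 0.673 and 1.49 FPKM. It was at 0.747 and 1.33 FPKM in HDAC4 wt mice and at 0.456 and 0.774 FPKM in LacZ mice. In the study's QRT-PCR, by contrast, CFA induced Ptgs2 with LacZ and HDAC4 wt but not with HDAC4 3SA. Of 14 genes of the prostaglandin pathway, 13 were higher and 6 past the fold, and the thromboxane synthase gene Tbxas1 was at 4.13 and 8.54 FPKM.

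Neuronal genes of the dorsal horn were lower by small amounts. Of 14 dorsal horn genes, 14 were lower after CFA and 4 were past the fold, with a median log2 fold change of -0.38, against -0.20 in HDAC4 wt and 0.01 in LacZ mice. Gad1, which makes the inhibitory transmitter GABA, was at 91.3 and 64.0 FPKM. The transcription factors Lmx1b and Tlx3, which mark excitatory neurons, were at 9.11 and 6.00 FPKM and at 5.32 and 3.68 FPKM. Calb1, a calcium-binding protein, was at 17.6 and 11.8 FPKM. Slc17a6, the glutamate transporter of excitatory neurons, was at 63.9 and 47.7 FPKM, Slc6a5, the glycine transporter of inhibitory ones, at 67.7 and 52.7 FPKM, and Tacr1, the receptor for substance P, at 5.39 and 4.04 FPKM.

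Receptors, channels and vesicle genes of neurons were lower too. All 12 glutamate receptor genes were lower, 3 of them past the fold, with a median of -0.32. These 3 were the NMDA receptor subunits Grin2a (5.90 and 3.88 FPKM) and Grin2b (3.74 and 2.46 FPKM) and the metabotropic receptor Grm5 (23.6 and 15.9 FPKM). All 13 genes of GABA and glycine receptors were lower, with Gabra3 (2.0 and 1.28 FPKM) and Gabra5 (22.3 and 15.3 FPKM) past the fold and a median of -0.32. All 14 voltage-gated channel genes were lower, with a median of -0.28. Cacna1e, a calcium channel, was at 10.5 and 6.88 FPKM, and the sodium channel Scn3a at 4.53 and 3.13 FPKM. All 13 synaptic vesicle genes were lower, none past the fold, with a median of -0.24. Over all genes, 52.8% were higher. The medians of these 4 lists lay between -0.21 and -0.10 in HDAC4 wt mice and between -0.09 and -0.01 in LacZ mice. Of 14 neuropeptide genes, 12 were lower, and Cck (27.9 and 17.9 FPKM) and Nmu (5.54 and 3.34 FPKM) were past the fold. Pan-neuronal genes were mixed, with 5 of 12 higher, none past the fold and a summed level of 3060 and 2800 FPKM. Examples were Snap25 at 861 and 646 FPKM, Syt1 at 84.6 and 60.7 FPKM, Uchl1 at 330 and 332 FPKM and Nefh at 144 and 185 FPKM.

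Genes of motor neurons were higher. Of 6 measured genes of motor and cholinergic neurons, 6 were higher and 4 past the fold. Chat, which makes acetylcholine, was at 4.45 and 11.0 FPKM, its vesicle transporter Slc18a3 at 7.30 and 17.4 FPKM, and the motor neuron transcription factor Mnx1 at 0.592 and 2.15 FPKM. Prph, the filament peripherin of motor and sensory neurons, was at 15.6 and 43.5 FPKM. In HDAC4 wt mice Chat was at 2.25 and 5.09 FPKM and Prph at 8.81 and 21.9 FPKM, and in LacZ mice at 4.57 and 5.97 FPKM and at 20.8 and 26.3 FPKM. Motor neurons lie in the ventral horn, while the samples are labelled as dorsal cord. The part of dissection in the neuronal values was not tested. Of sensory neuron genes, Avil was at 1.20 and 2.73 FPKM and Calcb at 3.12 and 4.44 FPKM, while P2rx3 and Trpv1 had a mean below 1 FPKM. Immediate early genes were mixed, with 10 of 16 higher. Fos was at 9.28 and 12.4 FPKM and Egr3 at 1.98 and 1.03 FPKM, the only immediate early gene lower past the fold. Atf3, an injury-induced transcription factor, was at 4.29 and 8.98 FPKM, and Sprr1a at 2.03 and 4.98 FPKM. Of the 8 measured genes of nerve injury and regeneration, 5 were higher and 3 lower, these 2 were past the fold, and the median was 0.19.

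Schwann cells make the myelin of peripheral nerve, nerve roots included. Of 9 measured genes, 8 were lower and 6 past the fold, with a median of -0.74. The myelin genes Pmp22 and Prx were at 336 and 233 FPKM and at 69.8 and 41.6 FPKM, the sodium channel Scn7a at 6.6 and 2.92 FPKM, and Ncmap at 12.6 and 6.74 FPKM. Ngfr, a neurotrophin receptor of immature Schwann cells, was the exception at 3.01 and 4.32 FPKM. The same 9 genes were all higher after CFA in LacZ mice, with a median of 0.59, and had a median of -0.04 in HDAC4 wt mice. Their summed level was 1400 FPKM after saline in HDAC4 3SA mice, against 1020 FPKM in LacZ and 1030 FPKM in HDAC4 wt mice, and 875 FPKM after CFA, against 1570 and 1010 FPKM. The share of nerve root in the tissue was not tested.

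Neutrophil genes were lower as well. Of 8 measured genes, 7 were lower and 6 past the fold, with a median of -0.75. Of the 5 genes of the list below 1 FPKM, 3 were higher and 2 lower. In LacZ mice the 8 genes were all higher, with a median of 2.85. In HDAC4 wt mice the median was -0.56, with 2 of the 8 higher. Ngp, a granule protein of maturing neutrophils, was at 5.63 and 2.28 FPKM in HDAC4 3SA mice. It was at 3.93 and 1.66 FPKM in HDAC4 wt mice and at 0.857 and 10.1 FPKM in LacZ mice. S100a8 and S100a9, the subunits of calprotectin, were at 20.6 and 13.4 FPKM and at 27.0 and 18.4 FPKM, and in LacZ mice at 3.54 and 36.8 FPKM and at 4.96 and 52.8 FPKM. The antimicrobial peptide gene Camp was at 3.67 and 1.80 FPKM. Csf3r, the receptor for a granulocyte growth factor, was the single gene that was higher, at 6.59 and 11.0 FPKM. The summed neutrophil level after saline was 71.1 FPKM in HDAC4 3SA, 51.5 FPKM in HDAC4 wt and 15.5 FPKM in LacZ mice, and after CFA it was 51.7, 40.7 and 118 FPKM. Skeletal muscle genes were lower in 7 of 9 cases, 2 of them past the fold, with a median of -0.46 and a summed level of 80.8 and 68.1 FPKM. In LacZ mice 9 of 9 were higher, with a median of 1.16 and a summed level of 24.1 and 51.8 FPKM, and in HDAC4 wt mice the median was -1.66 and the sum 10.1 and 4.87 FPKM. The red cell gene Hbb-bs was at 339 and 384 FPKM.

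**Figure D3:**
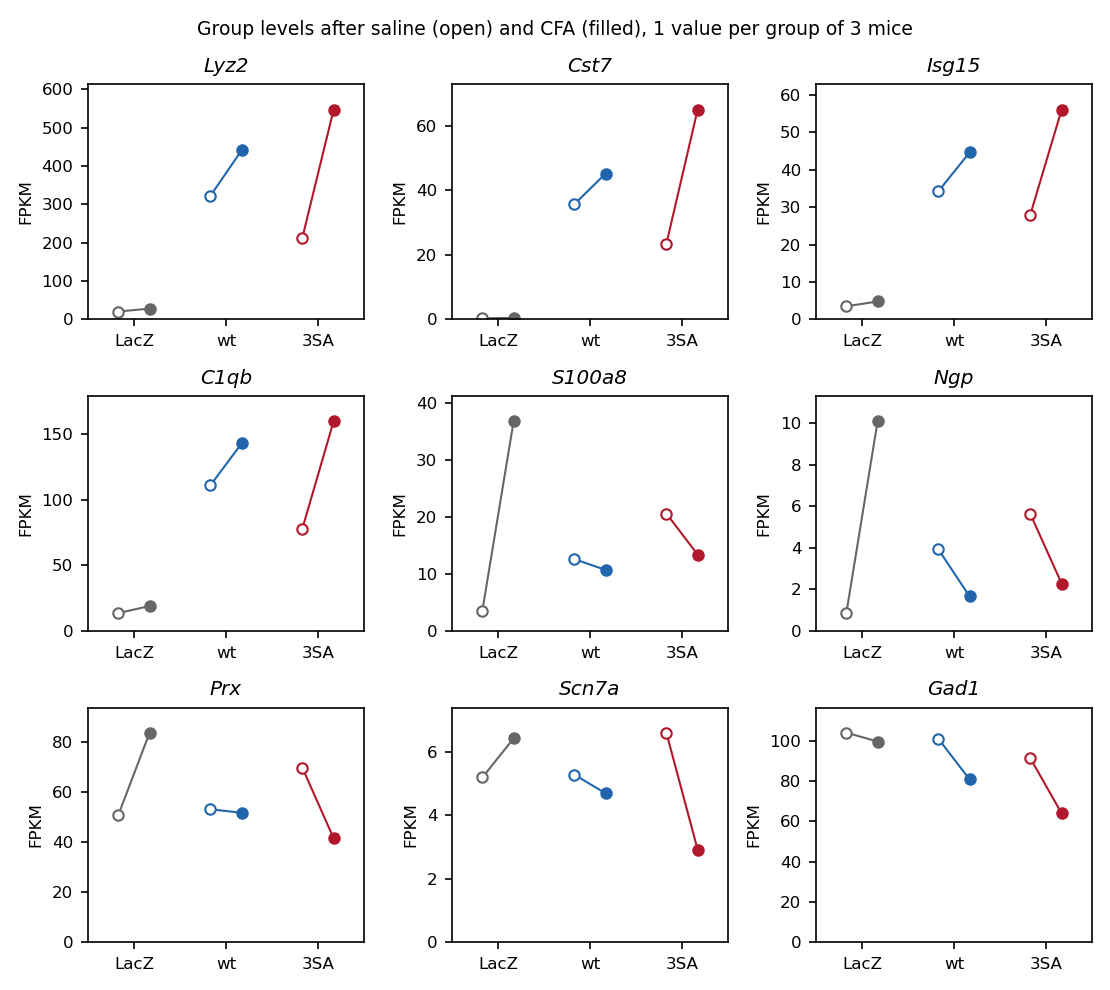
FPKM of 9 genes after saline (open) and CFA (filled) in LacZ, HDAC4 wt and HDAC4 3SA mice, 1 value per group of 3 mice, on linear axes that start at 0. Lyz2, Cst7, Isg15 and C1qb start higher in both HDAC4 vectors than in LacZ mice and are highest after CFA in HDAC4 3SA mice. S100a8, Ngp and Prx are higher after CFA in LacZ mice and lower in both HDAC4 vectors, Prx only slightly in HDAC4 wt mice.

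Levels before CFA differed between vectors. The tables were normalized in separate runs, so levels are set side by side only as a description. After saline, Lyz2 was at 213 FPKM in HDAC4 3SA mice, 322 FPKM in HDAC4 wt mice and 20.6 FPKM in LacZ mice, and Cst7 at 23.4, 35.7 and 0.348 FPKM. After CFA, Lyz2 was at 547, 441 and 28.1 FPKM in the same order, and Cst7 at 65.0, 45.2 and 0.464 FPKM. The level in HDAC4 3SA mice was thus below that in HDAC4 wt mice after saline and above it after CFA. The same order was counted over the lists. Of the 28 interferon genes, 28 were above LacZ after saline, 27 were below HDAC4 wt after saline, and 25 were above HDAC4 wt after CFA. For 17 genes of activated microglia these counts were 16, 17 and 15, for 13 lysosomal genes 13, 13 and 12, and for 14 Toll-like receptor genes 14, 14 and 12. For complement they were 14, 14 and 8 of 14. Genes of lymphocytes and of antigen presentation had fewer such cases after CFA. None of 7 T cell genes, 1 of 11 interferon gamma genes, 1 of 10 B and plasma cell genes, 1 of 18 class I genes and 1 of 9 class II genes was above HDAC4 wt after CFA, although all of the genes of these 5 lists were below it after saline. Summed over 28 interferon genes, the level was 392 and 753 FPKM in HDAC4 3SA, 498 and 680 FPKM in HDAC4 wt, and 79.1 and 101 FPKM in LacZ mice.

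Genes were sorted by the ratio of saline levels in HDAC4 wt over LacZ mice. The ratio uses no value of HDAC4 3SA mice, but the choice of genes does. The 13801 genes had a value in all 3 tables and a mean of at least 1 FPKM, both in HDAC4 3SA mice and over the 6 groups. Genes that are low in LacZ mice could thus enter through a high HDAC4 3SA value after CFA, which favours the higher side. Of 11398 genes with a log2 ratio from -0.5 to 0.5, 1.25% were higher past the fold after CFA in HDAC4 3SA mice, with a median of -0.01. From 0.5 to 1, 13.8% of 985 genes were, and from 1 to 2, 62.4% of 466 genes, with a median of 0.57. From 2 to 3, 91.4% of 221 genes were past the fold, with a median of 0.83, and above 3, 88.6% of 175 genes, with a median of 0.98. Of the 985 genes higher past the fold in HDAC4 3SA mice, 784 (79.6%) had a ratio above 0.5, a range that holds 1847 of the 13801 genes. At the other end, 20.6% of 102 genes with a ratio below -1 and 8.15% of 454 genes from -1 to -0.5 were higher past the fold as well, although the medians of these ranges were -0.04 and -0.12. In the range above 3, the median was 0.38 in HDAC4 wt and 0.45 in LacZ mice, values that share saline groups with the ratio.

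**Figure D4:**
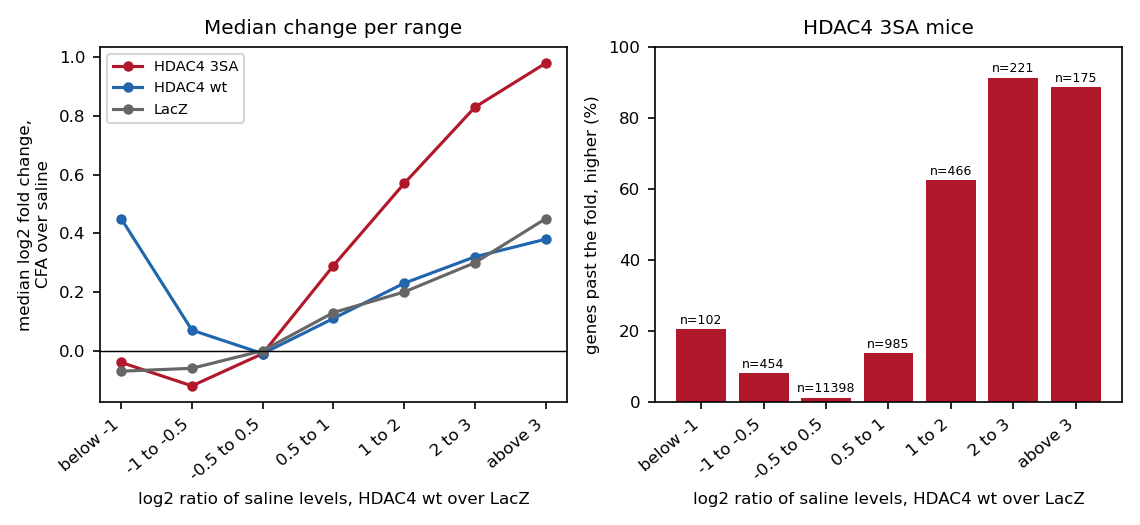
Left, median log2 fold change after CFA of genes grouped by the log2 ratio of their saline levels in HDAC4 wt over LacZ mice. Right, the percentage of genes of each range that were higher past the fold in HDAC4 3SA mice, with the number of genes over each bar; it is 1.25% around equality and 91.4% for ratios from 2 to 3.

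Across these 13801 genes, the log2 fold changes of HDAC4 3SA mice had a Spearman rho of 0.58 and a Pearson r of 0.43 with those of HDAC4 wt mice. With those of LacZ mice they had a rho of 0.28 and an r of 0.20. These are descriptions across genes, which are not independent replicates. Groups of different vectors share no mice. Among 985 genes higher past the fold in HDAC4 3SA mice, the median was 0.76 there, 0.30 in HDAC4 wt and 0.20 in LacZ mice, and 88.4% and 78.3% of them were higher after CFA in those vectors, against 51.0% and 53.2% of all genes. Higher past the fold themselves were 182 in HDAC4 wt (18.5%) and 199 in LacZ mice (20.2%), against 6.78% and 3.22% of all rows of those vectors. The latter shares count every row of a gene and are not like for like. In HDAC4 3SA mice the share was 8.89% by rows and 7.64% by genes. Among 285 genes lower past the fold, 77.5% were lower in HDAC4 wt mice and 47.0% in LacZ mice, with medians of -0.28 and 0.01. Both sets were chosen by their values in HDAC4 3SA mice, which fixes their larger medians there. Whether the vectors differ was not tested.

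The genes named below from the study, Slc6a9 apart, were chosen on these samples, so their values here are no independent evidence. Slc6a9 is named there as a main glycine transporter that CFA left unchanged. The study has separate evidence for some of the others. It measured H19, Nov, Slc26a7, Slc22a6 and Msln by QRT-PCR in further samples and reports that changes of selected genes held there. It also reports more OAT1 protein 24 h after CFA, an increase that HDAC4 3SA prevented. Msln, mesothelin, was at 0.0837 and 0.0962 FPKM in HDAC4 3SA mice and at 0.0517 and 1.01 FPKM in LacZ mice. Slc22a6, the organic anion transporter OAT1, was at 0.0547 and 0.0752 FPKM against 0.0438 and 0.769 FPKM in LacZ mice, in a row that spans 36.3% of its exon bases. Slc26a7, an anion exchanger, was at 0.0564 and 0.0897 FPKM against 0.0968 and 0.765 FPKM. H19, an imprinted long RNA, was at 0.700 and 0.944 FPKM against 0.362 and 1.05 FPKM. Prdm6 and Tspan11 were at 0.0540 and 0.116 FPKM and at 0.185 and 0.180 FPKM. These 6 genes had a mean below 1 FPKM in HDAC4 3SA mice and are not among the rows kept. Of those kept, Thbs1, a matricellular protein, was at 2.6 and 2.80 FPKM in HDAC4 3SA mice against 2.22 and 4.71 FPKM in LacZ and 2.98 and 7.65 FPKM in HDAC4 wt mice. Nov, whose row was matched to no annotated gene of that name, was at 3.16 and 2.10 FPKM. Mgp was at 15.8 and 23.9 FPKM and Acta1 at 12.5 and 9.74 FPKM. Among amino acid transporters, Slc36a2 was at 5.74 and 3.40 FPKM, Slc38a5 at 5.32 and 8.02 FPKM, Slc6a20a, whose row spans 68.3% of exon bases, at 3.04 and 3.44 FPKM and Slc6a9 at 74.5 and 72.8 FPKM. Among 11 leptomeningeal genes, 7 were higher and 1 was past the fold in each direction, Mgp and Ogn (43.5 and 27.5 FPKM), with a median of 0.13 against 0.55 in LacZ mice. Of 17 matrix genes, 13 were higher and 4 lower, with 4 higher and 1 lower past the fold and a median of 0.10 against 0.29 in LacZ mice, and Fn1, fibronectin, had the highest log2 fold change, at 16.7 and 37.6 FPKM.

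Many rows with the largest single values were short or lay on the strand opposite to the gene. Of the 10 highest log2 fold changes, 7 were of rows listed at 0 after saline, for which no fold is given. These were rows of Clec3b, Pde1c, Fgf21, F7, Tpm1, Gm37227 and Duoxa1, at 4.99, 3.76, 3.35, 3.34, 3.13, 2.09 and 2.02 FPKM after CFA. The main rows of Clec3b, Pde1c and Tpm1 had log2 fold changes of 0.40, 0.16 and -0.07. The rows of Fgf21, F7 and Duoxa1 span 18.7%, 9.90% and 8.80% of the exon bases of their genes. The other 3 were second rows of 1110038B12Rik (0.422 and 6.34 FPKM) and Was (19.1 and 211 FPKM), and the main row of Iqgap3, a scaffold protein, at 1.04 and 10.9 FPKM. Of the 10 lowest, Gm42667, an immunoglobulin pseudogene, was at 164 FPKM in the saline group and listed at 0 after CFA. Second rows of Gm6634, Upp1, Gm29642, Mapk6, Nsun7, Lhfpl3 and Gm20388 had log2 fold changes from -3.23 to -2.43. Their main rows had values from -0.37 to 1.85. For Lhfpl3, a gene of oligodendrocyte precursors, the antisense row was at 670 and 117 FPKM and the sense row at 21.9 and 25 FPKM. Gm15385 (3.5 and 0.469 FPKM) and Gm26674 (28.2 and 4.91 FPKM) were main rows.

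When the rule was limited to protein-coding genes whose row lies on the annotated strand and spans at least 50% of exon bases, 797 of 11943 genes were higher past the fold (6.67%) and 162 lower (1.36%). After Iqgap3, the highest of these were Palmd (1.92 and 9.23 FPKM), Gm5431 (0.342 and 1.77 FPKM), Srd5a2, a steroid reductase (0.919 and 4.21 FPKM), and Scgb3a1 (0.702 and 3.2 FPKM). The urotensin gene Uts2 was at 3.95 and 15.3 FPKM. The lowest were Dcun1d4 (2.24 and 0.783 FPKM), Bicc1 (9.52 and 3.79 FPKM), Ngp and Scn7a. Trh, which encodes thyrotropin-releasing hormone, was at 3.56 and 1.82 FPKM.

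Some genes differed from both other vectors. Furthest above the nearer of the LacZ and HDAC4 wt log2 fold changes were Gm43766, Rpl30-ps5, Adam32, Srd5a2 and Gm26850. Of these, Srd5a2 is a protein-coding gene with a full-length row, whose log2 fold change was 2.08 in HDAC4 3SA, -0.10 in HDAC4 wt and -0.30 in LacZ mice. Furthest below were Gm42667, Hist1h4m, Gm26674, Gm23992 and Lyz1. Lyz1, a lysozyme near to Lyz2 in sequence, had a row that spans 12.1% of its exon bases, at 5.89 and 4.57 FPKM. Among protein-coding genes with a full row, ordered by the same measure after values were seen, the next highest were Cd200r4, an immune receptor, at 1.61 against 0.19 in HDAC4 wt and -0.04 in LacZ mice, and 2410002F23Rik, at 1.94 against 0.56 and -0.11. On the lower side were Dcun1d4, at -1.41 against 0.46 and -0.16, Mgl2, a macrophage lectin, at -0.56 against 0.53 and 0.74, and Scn7a, at -1.15 against -0.17 and 0.30. Ikbkg, a subunit of the kinase that activates NF-kB, was at 22.7 and 12.9 FPKM in HDAC4 3SA mice, at 32.6 and 43.1 FPKM in HDAC4 wt mice and at 47.3 and 46.0 FPKM in LacZ mice.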

How the data were processed

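Poly-A RNA of dorsal lumbar spinal cord was sequenced in single-end, strand-specific libraries of 18 mice, 3 in each of 6 groups. Per the submitters' processing notes, the authors used Bowtie, TopHat, Cufflinks and Cuffdiff with GRCm38 (mm10). The deposited FPKM values are 1 estimate per group, from a separate Cuffdiff run for each of the 3 vectors. The deposited tables also hold the authors' own comparisons, namely their log2 ratio, its test score, p-values, q-values and a call of significance, and none of these columns was used.

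Rows were kept and scored as described in the report, with Python 3.11.15, pandas 2.3.3 and NumPy 2.4.6. Of 34579 rows, 8609 name no gene, 201 name several genes and 6 were left out by status. Of 234 rows left out for an immunoglobulin name, 3 belong to Ighmbp2 and Iglon5, which only share the first letters. The strand of a row was read from the row order, which gave the annotated strand for 98.9% of 13048 genes with a single row. With 1 value per group no test was made here, depth of each mouse is known only as a stated minimum, and the number of mice limits precision. The script for the fold changes was tested on simulated data.

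Named were the 10 largest differences in each direction, the 5 genes furthest above and below the nearer of the other vectors, members of the gene lists, Hdac4 and the genes the study names. The 50 lists hold 679 genes, of which 629 have a row that names them alone and 547 reached 1 FPKM, and 9 mitochondrially encoded genes were among those with none. The members and lists were chosen with earlier results of these data known. Alternatives were another added value, other minimum levels, a wider fold, centring, 1 row per gene and a limit to protein-coding genes.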

Additional observations from a re-analysis of the deposited data

Results flagged for a closer look

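Rows with immunoglobulin names were outside the comparisons and were looked at because they stood far above the LacZ control. The 13 rows of antibody constant regions summed to 526 FPKM with saline and 843 FPKM with CFA in HDAC4 3SA mice. The same rows summed to 6.41 and 7.68 FPKM in LacZ mice and to 966 and 1180 FPKM in HDAC4 wt mice. The sums were higher after CFA, but single rows went both ways. In HDAC4 3SA mice Iglc1 was at 19 FPKM with saline and 215 FPKM with CFA, while Igha was at 120 and 90.9 FPKM and Ighg3 at 45.3 and 15.8 FPKM. In HDAC4 wt mice Iglc2 was at 118 and 22.9 FPKM and Ighg3 at 29.2 and 161 FPKM. The difference was not tested, since each group has 1 value.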

How the results depend on the processing

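Counts of rows past the fold depended on the level and the fold required, while rows higher outnumbered rows lower in HDAC4 3SA mice under every alternative run. With 1 FPKM added in place of 0.1 FPKM, 272 rows were lower in HDAC4 3SA mice, 678 were higher and 302 lower in HDAC4 wt mice, and 315 were higher in LacZ mice. With a mean of at least 5 FPKM, higher and lower rows numbered 644 and 188 in HDAC4 3SA, 411 and 175 in HDAC4 wt, and 183 and 145 in LacZ mice. With no minimum they numbered 3110 and 1540, 2677 and 1885, and 1721 and 1459 in the same order. Beyond a log2 fold change of 1 they numbered 380 and 87, 245 and 117, and 120 and 107. Of 2 alternatives chosen after seeing the data, 1 row per gene gave 294 lower in HDAC4 3SA mice, and protein-coding genes on the annotated strand with at least 50% of exon bases gave 797 higher and 162 lower.

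Of 292 medians of 49 lists under alternatives, 288 kept their direction and side of the fold. Among the alternatives, centring shifted values by only 0.006, and a stricter status left 16245 of 16249 rows, so both could hardly change a median. With 1 FPKM added, the medians of T cells (0.43) and chemokines (0.42) were below the fold. With a mean of at least 5 FPKM that of border-associated macrophages was 1.29, from 1 gene, and with no minimum that of red blood cells was below 0, at -0.07 over 4 genes in place of 0.27 over 2. No paired analysis was possible because the tables hold 1 value per group. For the same reason no mouse could be left out in turn.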

Other observations

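Some gene groups were not described above. Of 7 cell cycle genes that reached 1 FPKM, 7 were higher after CFA in HDAC4 3SA mice and 2 were past the fold, with a median of 0.31, and the 5 below that level were higher as well. Cdk1, the kinase that starts mitosis, was at 1.04 and 2.10 FPKM in a row that spans 36.4% of its exon bases, and Top2a, a topoisomerase of dividing cells, at 0.726 and 1.44 FPKM. The median of these 7 genes was -0.06 in HDAC4 wt mice, with 2 higher, and 0.23 in LacZ mice, with 7 higher. Of 9 genes of ependymal cells, which line the central canal and carry motile cilia, 8 were higher and 1 was past the fold, with a median of 0.21, against -0.86 in LacZ mice. Of 5 leukocyte adhesion genes, 5 were higher, and Icam1, which binds leukocyte integrins, was at 9.07 and 16.6 FPKM.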
